A study of Trametes versicolor with 12 samples.

Results

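The strain by age interaction asks, for each gene of the white-rot fungus Trametes versicolor, whether expression changed differently between 2 and 4 weeks of culture in strain 1956-1252 than in strain BRFM1218. It was taken as the log2 change between the ages (4 weeks over 2 weeks) in 1956-1252 minus the same change in BRFM1218, so a positive value means a change that was higher in 1956-1252. All 12 RNA sequencing libraries of the study entered it. They formed 4 groups of 3, namely 1956-1252 at 4 weeks (4w), 1956-1252 at 2 weeks (2w), BRFM1218 at 4w and BRFM1218 at 2w. Every group was mycelium from agar plates with 4% malt, 3 separate cultures were sequenced per group, and each strain is a single isolate, so the strains stand for themselves and not for a population. Of 14296 gene models, 12648 had enough reads to be tested and 1648 did not.

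Reads assigned to genes numbered 31763162 to 74647672 per library, and 3 reads corresponded to 0.0341 to 0.114 CPM (the reads of a gene scaled to library size and normalised between libraries). No library was a copy of another: the chi-square statistic between replicates was 5.08 to 32.7 per gene, where sampling alone gives about 1. Levels below are CPM for each library, and means are given ± SD over the 3 libraries of a group. An interaction is called when its Benjamini-Hochberg adjusted p in edgeR's quasi-likelihood test is under 0.05, and beyond 2-fold when edgeR's test against a 2-fold difference passes the same threshold. RNA came from whole mycelium, so fewer hyphae of a kind and less RNA in each of them cannot be told apart.

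White-rot fungi break down lignin, the phenolic polymer of wood, with secreted oxidative enzymes. Laccases are copper enzymes that oxidise phenols with oxygen. Class II peroxidases are secreted haem enzymes that use hydrogen peroxide: manganese peroxidases oxidise manganese(II), lignin peroxidases oxidise non-phenolic lignin units directly, and versatile peroxidases do both. Dye-decolorizing peroxidases are a separate haem family, and haem-thiolate peroxidases transfer oxygen to small molecules. The labels name malt agar as the medium and mention no wood.

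The age change differed between the strains in 6687 of the 12648 genes (52.9%). It was higher in 1956-1252 in 3241 genes (25.6%) and lower in 3446 (27.2%). Most of these differences were small. The median size of a called interaction was 0.73 on the log2 scale, and the central 90% of all genes lay between -1.51 and 1.76, around a median of -0.03. A difference beyond 2-fold was called in 1054 genes (8.33%), of which 622 were higher in 1956-1252 (4.92%) and 432 lower (3.42%). The share called was larger at higher levels, where standard errors were smaller. It was 10.6% among 1024 genes with a mean under 1 CPM (median standard error 0.84) and 73.5% among 2340 genes at 100 CPM or more (median standard error 0.07). The share called beyond 2-fold was 2.05% in the lowest of these classes, 7.54% between 1 and 10 CPM, 9.79% between 10 and 100 CPM and 8.5% at the top.

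The age change itself was smaller in 1956-1252. Its median size was 0.28 in 1956-1252 and 0.43 in BRFM1218 on the log2 scale, and its SD over the 8308 genes with at least 10 CPM was 0.53 in 1956-1252 and 0.74 in BRFM1218. In 1956-1252, 3176 genes rose with age (25.1%) and 2965 fell (23.4%). This balance depended on the processing: 3037 rose and 3150 fell with RLE size factors, 3632 rose and 2459 fell with library size alone, and 2569 to 3283 rose and 2637 to 3414 fell when single libraries were left out. In BRFM1218, 4175 rose (33.0%) and 3468 fell (27.4%). The excess of rises there was much smaller when a 1956-1252 4w library was left out. Then 3760 rose and 3694 fell (without replicate 1), 3742 and 3683 (replicate 2) or 3748 and 3690 (replicate 3). Among the genes with a called interaction, the larger of both age changes was that of BRFM1218 in 4480 (67.0%). Among those beyond 2-fold, it was that of 1956-1252 in 309 and that of BRFM1218 in 745 (70.7%).

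**Figure D1:**
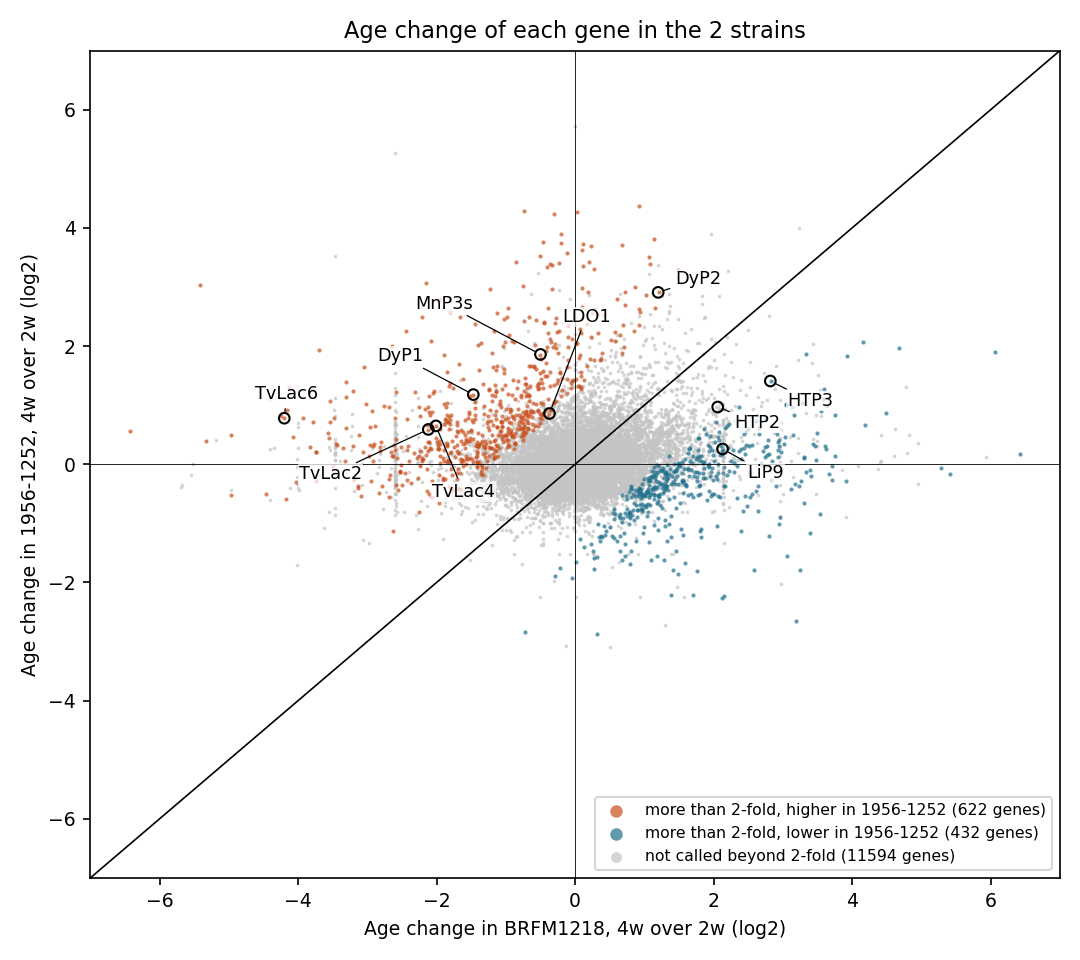
Age change of each tested gene (log2, 4w over 2w) in 1956-1252 on the vertical axis against BRFM1218 on the horizontal axis, with the line of equal change. Coloured points are the 622 genes higher and 432 lower in 1956-1252 beyond 2-fold, 10 genes with a symbol are circled, and 1 gene lies outside the axes. TvLac6, TvLac2, TvLac4, DyP1 and LDO1 lie above 0 in 1956-1252 and below 0 in BRFM1218.

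The calls of the age change in each strain show what kind of difference lay behind each interaction. Genes called in BRFM1218 and not in 1956-1252 were the largest source: 1365 that rose and 1135 that fell in BRFM1218 made up 20.4% and 17.0% of all called interactions. Genes called in 1956-1252 and not in BRFM1218 contributed 599 that rose and 540 that fell in 1956-1252. Opposite age changes add up in the interaction, so a call of it is then nearly built in. They were called in 1690 genes, all of them with a called interaction. Of these, 772 rose in 1956-1252 and fell in BRFM1218, and 918 fell in 1956-1252 and rose in BRFM1218. Of the 1054 interactions beyond 2-fold, 34.0% were of the first kind and 20.1% of the second. Of the genes that changed the same way in both strains, 687 of 1389 that rose and 540 of 1199 that fell had a called interaction, which was then a difference in size. A missed age call does not show that a strain did not respond, and 416 genes that rose in 1956-1252 with no call in BRFM1218 had no called interaction either.

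**Figure D2:**
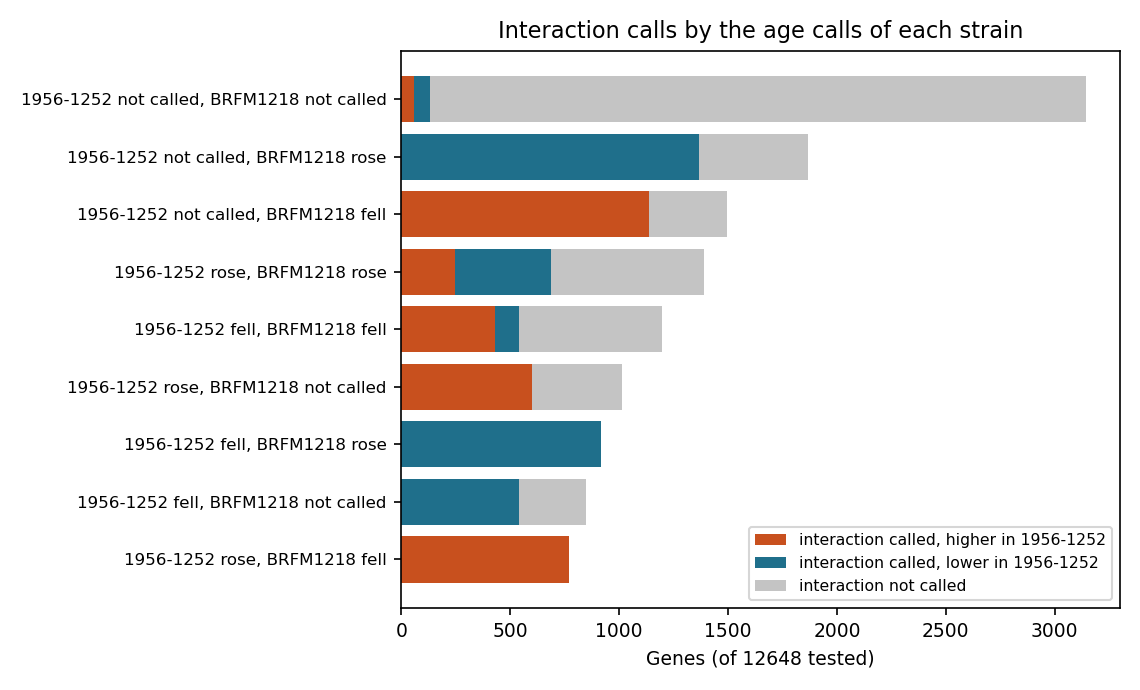
Number of tested genes in each combination of age calls (vertical axis), split by the interaction call. The bars of opposite change (918 genes that fell in 1956-1252 and rose in BRFM1218, and 772 that did the reverse) are wholly called. This is nearly built in, as opposite changes add up in the interaction. Of the 3142 genes called in neither strain, 3011 have no called interaction.

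In some genes the order of the strains turned round between the ages. Of 9615 genes in which the strains differed at both ages, 361 were below BRFM1218 in 1956-1252 at 2w and above it at 4w, and 301 were above it at 2w and below it at 4w. All of these had a called interaction, which is nearly built in, since strain differences of opposite sign at the 2 ages add up in the interaction. TvLac6, TvLac4, TvFet3A, LDO1 and VP3at were in the first class. The order depends on the scaling, as the TMM factors were 0.8195 to 0.8458 in BRFM1218 and 1.178 to 1.231 in 1956-1252. By the deposited RPKM (reads scaled to gene length and column total), VP3at was higher in 1956-1252 at both ages. TvLac6, TvLac4, TvFet3A and LDO1 still turned round, but TvFet3A was nearly level at 2w (3.68 in 1956-1252 and 3.86 in BRFM1218). With library size alone, the classes held 374 and 295 genes. Among the genes with an interaction beyond 2-fold, 590 (56.0%) had a smaller strain difference at 4w than at 2w, against 50.3% of all tested genes. These were 377 of the 622 higher in 1956-1252 and 213 of the 432 lower.

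Symbols were available for 42 genes, nearly all of them oxidative enzymes, and all 42 were tested. The interaction was called in 29, with 15 higher and 14 lower in 1956-1252, against 25.6% and 27.2% of all tested genes. Beyond 2-fold, 8 were higher and 3 lower, against 4.92% and 3.42% of all tested genes. In 1956-1252, 19 rose with age and none fell in edgeR's quasi-likelihood test, against 25.1% and 23.4% of all tested genes, with 0 lower at an unadjusted p under 0.05 and 0 called lower by DESeq2. In BRFM1218, 19 rose and 12 fell, against 33.0% and 27.4% of all tested genes, so the falls were near the background. Opposite changes were called in 9, all of them rising in 1956-1252 and falling in BRFM1218, against 6.1% of all tested genes with that order and 13.4% in either order.

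**Figure D3:**
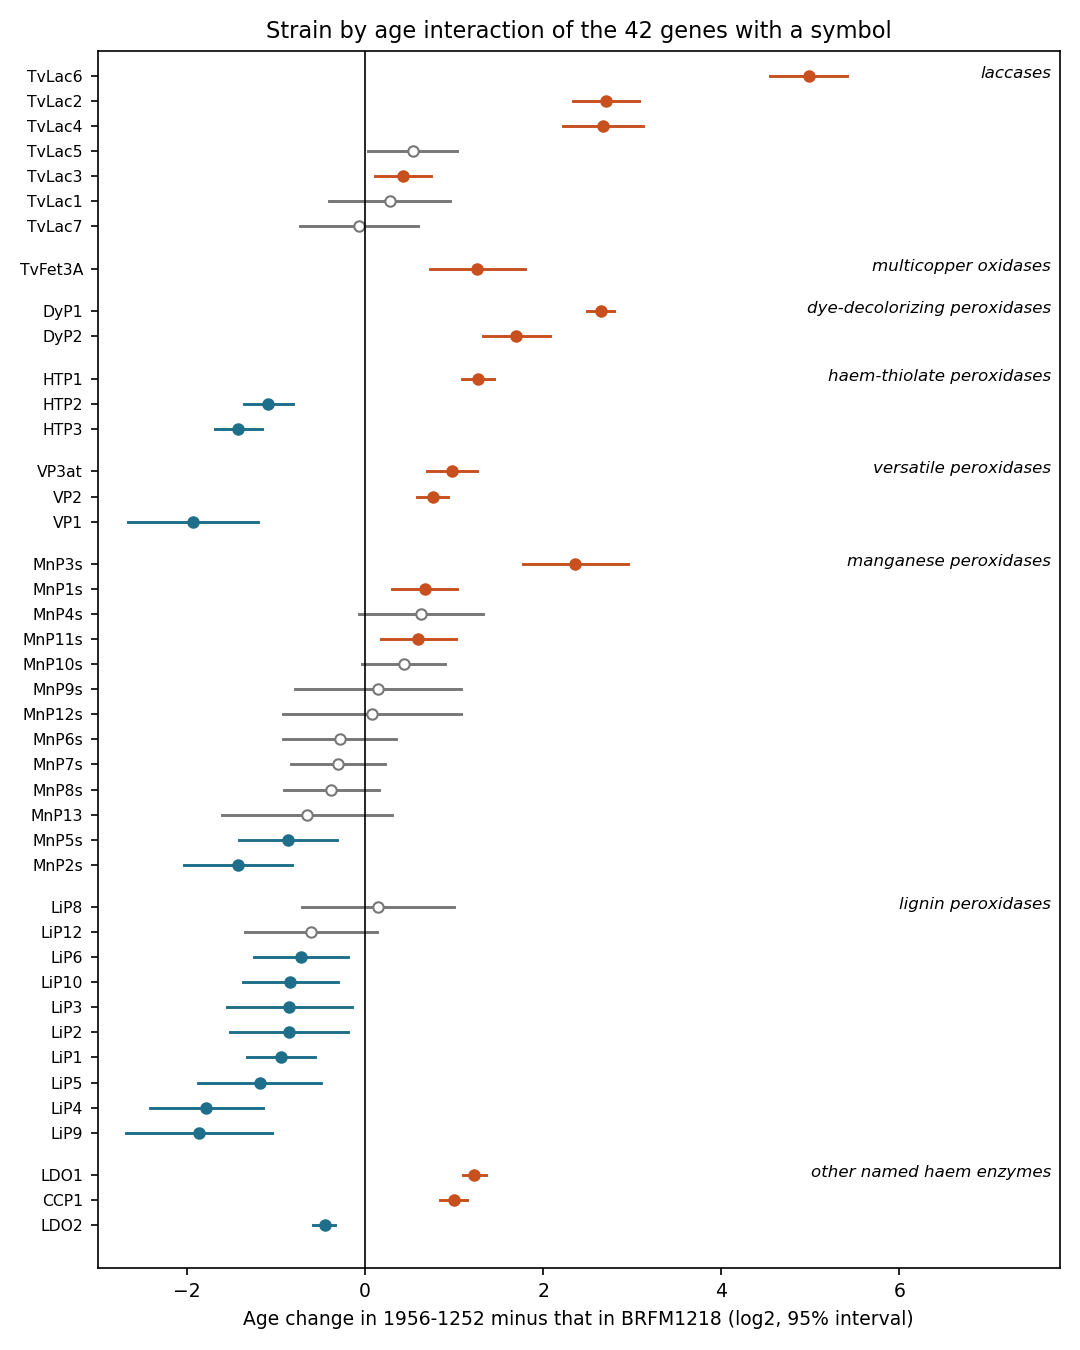
Interaction of the 42 genes with a symbol (log2, point and 95% interval), grouped by enzyme family. Filled points are called, higher (orange) or lower (blue) in 1956-1252, and open points are not called. TvLac6 lies farthest to the right at 4.98, and 8 of 10 lignin peroxidases lie to the left of 0 and are called.

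Of the 7 laccases, 4 had an age change that was higher in 1956-1252 and 3 were not called, with a median interaction of 0.54. Over all tested genes 25.6% were called higher. TvLac6 (TRAVEDRAFT_37188) had the largest interaction of all genes with a symbol. Its levels were 9.98, 9.0 and 9.14 CPM in 1956-1252 at 4w and 4.61, 6.08 and 5.61 CPM at 2w. BRFM1218 had 3.69, 6.52 and 4.73 CPM at 4w and 89.4, 90.0 and 96.6 CPM at 2w. The ages did not overlap in either strain, and BRFM1218 at 2w stood far above the other 3 groups. The age change was 0.78 ± 0.14 (SE) in 1956-1252 and -4.20 ± 0.15 in BRFM1218. The interaction was 4.98 ± 0.20 on the log2 scale, a 31.6-fold difference with an adjusted p of 3.3e-12.

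TvLac2 (TRAVEDRAFT_146232) had 7.7, 6.77 and 5.94 CPM in 1956-1252 at 4w and 4.23, 4.55 and 4.79 CPM at 2w. BRFM1218 had 10.8, 12.5 and 8.80 CPM at 4w and 47.2, 46.1 and 47.6 CPM at 2w. The 2w libraries of BRFM1218 were again the high ones, and the strains were closer at 4w, with a log2 strain difference of -0.67 against -3.38 at 2w. The interaction was 2.71 ± 0.17 (adjusted p = 1.02e-09). TvLac4 (TRAVEDRAFT_115295) had 7.76, 9.19 and 6.58 CPM in 1956-1252 at 4w and 4.40, 5.16 and 5.38 CPM at 2w. Its levels in BRFM1218 were 3.73, 4.51 and 4.49 CPM at 4w and 18.7, 15.7 and 16.9 CPM at 2w. The ages did not overlap in either strain, and 1956-1252 lay below BRFM1218 at 2w and above it at 4w. The interaction was 2.67 ± 0.21 (adjusted p = 1.6e-08).

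The next gene along the assembly after TvLac4 is TvLac5 (TRAVEDRAFT_118183), whose age changes were 0.12 in 1956-1252 and -0.42 in BRFM1218. Its interaction of 0.54 had an adjusted p of 0.0632 and a 95% interval of 0.04 to 1.03. TvLac3 (TRAVEDRAFT_138261) rose in both strains, by 0.76 ± 0.10 in 1956-1252 and 0.34 ± 0.11 in BRFM1218, and its interaction of 0.43 ± 0.15 was called with an adjusted p of 0.0223. That call was lost without BRFM1218 2w replicate 1 (0.34), BRFM1218 2w replicate 3 (0.38), BRFM1218 4w replicate 1 (0.38) or 1956-1252 2w replicate 1 (0.39), with adjusted p of 0.0521 to 0.0761. TvLac7 rose by a like amount in both strains, 1.43 ± 0.20 in 1956-1252 and 1.5 ± 0.24 in BRFM1218, but the interval of its interaction, -0.73 to 0.60, was too wide to show equality. TvLac1 was not called for the interaction or for the age change of either strain, with an interaction of 0.28 and an interval of -0.40 to 0.95.

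TvFet3A (TRAVEDRAFT_65977), a multicopper oxidase whose namesake Fet3 in Saccharomyces cerevisiae oxidises iron(II) during iron uptake, also rose in 1956-1252 and fell in BRFM1218. It averaged 9.73 ± 0.458 CPM at 4w and 6.45 ± 0.696 CPM at 2w in 1956-1252, and 6.02 ± 1.79 CPM at 4w and 9.66 ± 1.55 CPM at 2w in BRFM1218. The interaction was 1.26 ± 0.25 (adjusted p = 0.000456). Only 86.5% of its reads were unique, and the interaction on unique reads was 1.33.

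**Figure D4:**
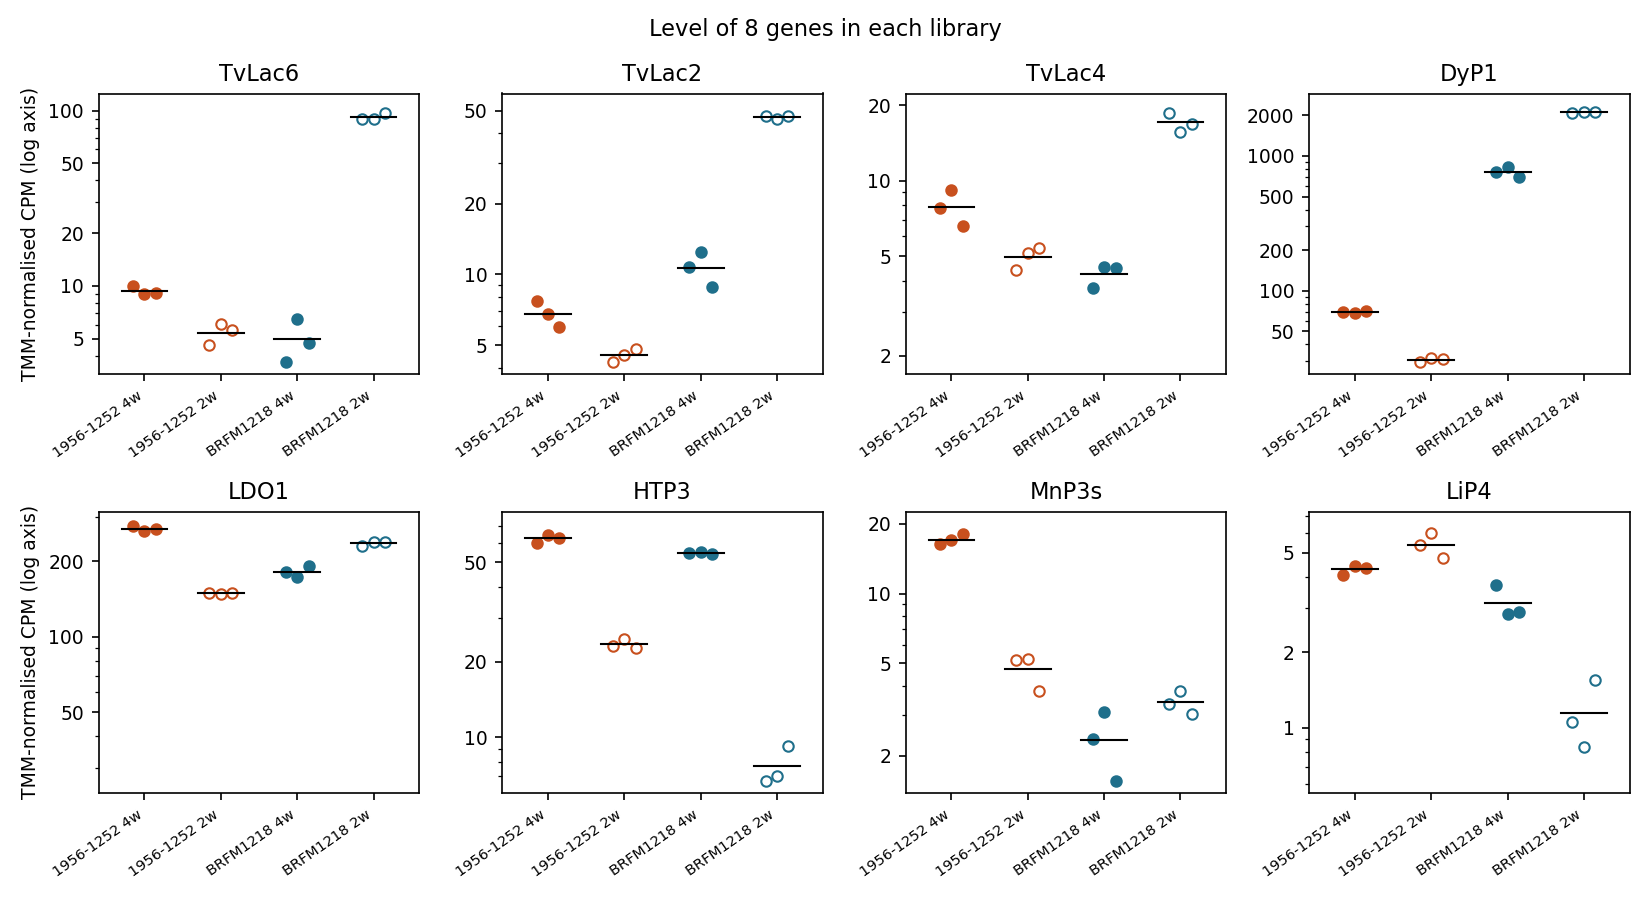
Level of 8 genes in each library (TMM-normalised CPM, log axis, each panel on its own range), with filled points at 4w, open points at 2w and a line at the mean of each group. TvLac6, TvLac2 and TvLac4 are highest in BRFM1218 at 2w, MnP3s is highest in 1956-1252 at 4w, and LiP4 is lowest in BRFM1218 at 2w.

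Both dye-decolorizing peroxidases had a higher age change in 1956-1252, beyond 2-fold, as did 4.92% of all tested genes. DyP1 (TRAVEDRAFT_48870) had 69.9, 68.4 and 71.1 CPM in 1956-1252 at 4w and 29.6, 31.6 and 31.3 CPM at 2w. The libraries of BRFM1218 had 762, 831 and 697 CPM at 4w and 2098, 2107 and 2137 CPM at 2w. It rose in 1956-1252 by 1.18 ± 0.054 and fell in BRFM1218 by 1.47 on the log2 scale, and all 6 libraries of 1956-1252 stayed below all 6 of BRFM1218. The interaction was 2.65 ± 0.074 (adjusted p = 3e-14).

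DyP2 (TRAVEDRAFT_48874) had 138, 133 and 131 CPM in 1956-1252 at 4w and 16.9, 18.0 and 18.8 CPM at 2w. In BRFM1218 it had 4.98, 5.18 and 5.11 CPM at 4w and 1.37, 2.71 and 2.43 CPM at 2w. It rose in both strains, by 2.91 ± 0.091 in 1956-1252 and 1.20 ± 0.15 in BRFM1218, so the interaction of 1.70 ± 0.18 (adjusted p = 6.2e-07) was a difference in the size of a rise. By the deposited RPKM, which scales reads to gene length, the mean at 4w was 58.6 for DyP1 and 112 for DyP2 in 1956-1252, and 437 for DyP1 and 2.89 for DyP2 in BRFM1218. At 2w it was 25 for DyP1 and 14.4 for DyP2 in 1956-1252, and 1198 for DyP1 and 1.22 for DyP2 in BRFM1218. DyP2 was thus the higher of the pair in 1956-1252 at 4w, and DyP1 in the 3 other groups.

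The 3 haem-thiolate peroxidases split, with 1 called higher and 2 lower in 1956-1252, against 25.6% and 27.2% of all tested genes. HTP1 (TRAVEDRAFT_26967) had 240, 239 and 238 CPM in 1956-1252 at 4w and 95.4, 95.1 and 97.2 CPM at 2w, against 29.9, 30.4 and 35.7 CPM in BRFM1218 at 4w and 29.6, 30.6 and 32.0 CPM at 2w. The ages were apart in 1956-1252 and overlapped in BRFM1218, and the interaction was 1.27 ± 0.085 (adjusted p = 1.72e-09). HTP2 (TRAVEDRAFT_154915) and HTP3 (TRAVEDRAFT_23785), which lie next to each other, rose in both strains and rose more in BRFM1218. HTP3 had 59.7, 64.5 and 62.7 CPM in 1956-1252 at 4w and 23.1, 24.7 and 22.7 CPM at 2w. BRFM1218 had 54.7, 55.0 and 54.0 CPM at 4w and 6.72, 7.04 and 9.26 CPM at 2w. The log2 strain difference was 0.19 at 4w and 1.61 at 2w, and the interaction was -1.42 ± 0.13 (adjusted p = 5.54e-08). For HTP2 it was -1.09 ± 0.13, with rises of 0.97 in 1956-1252 and 2.06 in BRFM1218.

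Of the other named haem enzymes, LDO1 (TRAVEDRAFT_157667) had 277, 263 and 269 CPM in 1956-1252 at 4w and 149, 148 and 149 CPM at 2w. Its levels in BRFM1218 were 182, 173 and 192 CPM at 4w and 231, 238 and 238 CPM at 2w. The ages did not overlap in either strain and moved in opposite directions, with an interaction of 1.23 ± 0.061 (adjusted p = 3.56e-11). LDO2 (TRAVEDRAFT_64780) rose in both strains, by 0.85 ± 0.040 in 1956-1252 and 1.30 ± 0.043 in BRFM1218, and its interaction was -0.45 ± 0.059. CCP1 (TRAVEDRAFT_26601), named for cytochrome c peroxidase, a mitochondrial enzyme in yeast, averaged 48.2 ± 0.568 CPM at 4w and 49.4 ± 2.77 CPM at 2w in 1956-1252. In BRFM1218 it averaged 161 ± 8.95 CPM at 4w and 329 ± 8.56 CPM at 2w, and the interaction was 1.0 ± 0.073 (adjusted p = 4.44e-09).

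The 26 class II peroxidases were called in both directions: the interaction was higher in 1956-1252 in 5, lower in 11 and not called in 10, with a median of -0.49, while 25.6% of all tested genes were higher and 27.2% lower. Among 10 lignin peroxidases the interaction was lower in 1956-1252 in 8, called higher in 0 and not called in 2 (edgeR's quasi-likelihood test), against 27.2% of all tested genes lower and 25.6% higher. The median interaction was -0.85, with values between -1.86 and 0.15. The unadjusted p under 0.05 and DESeq2 gave 0 higher members too. In 1956-1252, where the median age change was 0.17, edgeR's quasi-likelihood test called 0 lignin peroxidases in either direction, DESeq2 called 0, and 1 reached an unadjusted p under 0.05 as higher at 4w. LiP8 was called higher at 4w in 1956-1252 when libraries were scaled by size alone (0.63, adjusted p = 0.0391). In BRFM1218, 8 rose and 0 fell, against 33.0% and 27.4% of all tested genes, with a median of 1.04 and 0 lower at an unadjusted p under 0.05 or by DESeq2.

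LiP4 (TRAVEDRAFT_133326) was the lignin peroxidase beyond 2-fold. It had 4.09, 4.43 and 4.33 CPM in 1956-1252 at 4w and 5.39, 5.99 and 4.75 CPM at 2w, against 3.71, 2.84 and 2.89 CPM in BRFM1218 at 4w and 1.06, 0.840 and 1.55 CPM at 2w. BRFM1218 at 2w was the low group, and the ages of BRFM1218 did not overlap. The interaction was -1.78 ± 0.30 (adjusted p = 8.51e-05). Its neighbour LiP5 (TRAVEDRAFT_134250) had 10.3, 9.37 and 10.5 CPM at 4w and averaged 12.4 ± 0.936 CPM at 2w in 1956-1252. In BRFM1218 it averaged 4.22 ± 0.824 CPM at 4w and 2.31 ± 1.21 CPM at 2w. The ages overlapped in BRFM1218, where replicate 3 had 3.3 CPM at 4w and 3.7 CPM at 2w. The interaction of LiP5 was -1.18 ± 0.33, and -1.72 ± 0.25 without BRFM1218 2w replicate 3. LiP9 (TRAVEDRAFT_134226) had the largest estimate, -1.86 ± 0.39, at means of 1.21 CPM at 4w and 1.0 CPM at 2w in 1956-1252 and 3.07 CPM at 4w and 0.706 CPM at 2w in BRFM1218. All lignin peroxidases had means of 16.5 CPM or less in every group.

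LiP1 (-0.94), LiP10 (-0.84), LiP2 (-0.85), LiP3 (-0.85) and LiP6 (-0.72) were called with smaller differences. The calls of the last 3 were borderline, with adjusted p of 0.0297, 0.0413 and 0.0236. They were lost in several fits with a library left out, and in some of these the estimate of LiP3 was no smaller than the main one. LiP2 lost its call without BRFM1218 4w replicate 1 (-0.62), BRFM1218 2w replicate 1 (-0.78) or 2 (-0.79), 1956-1252 4w replicate 1 (-0.82) or 3 (-0.78), or 1956-1252 2w replicate 2 (-0.82), with adjusted p of 0.0571 to 0.0826. LiP3 lost it without any library other than BRFM1218 4w replicates 1 and 3, BRFM1218 2w replicate 2 and 1956-1252 2w replicate 3, at -0.89 to -0.67 and adjusted p of 0.0585 to 0.117. LiP6 lost it without BRFM1218 4w replicate 1 (-0.61), BRFM1218 2w replicate 2 (-0.64), 1956-1252 4w replicate 1 (-0.58) or 2 (-0.67), or 1956-1252 2w replicate 2 (-0.65), with adjusted p of 0.0501 to 0.0825. LiP8 (0.15, interval -0.71 to 1.0) and LiP12 (-0.60, interval -1.35 to 0.14) were not called. LiP12 was called at -0.80 without BRFM1218 4w replicate 3, with an adjusted p of 0.0463.

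The 3 versatile peroxidases were all called, against 52.9% of all tested genes in either direction. VP1 (TRAVEDRAFT_43289) had a lower age change in 1956-1252. Its levels were 3.09, 2.78 and 3.03 CPM in 1956-1252 at 4w and 3.34, 3.58 and 2.89 CPM at 2w, against 3.89, 3.36 and 4.21 CPM in BRFM1218 at 4w and 0.570, 1.42 and 1.26 CPM at 2w. The ages overlapped in 1956-1252 and were apart in BRFM1218, with an interaction of -1.93 ± 0.34 (adjusted p = 0.000143), beyond 2-fold. VP2 (0.76 ± 0.081) and VP3at (0.98 ± 0.13) went the other way, as both rose in 1956-1252 and fell in BRFM1218. The log2 age change of VP2 was 0.50 in 1956-1252 and -0.26 in BRFM1218, and that of VP3at was 0.38 in 1956-1252 and -0.60 in BRFM1218. VP3at averaged 27.1 ± 0.779 CPM at 4w and 20.8 ± 0.589 CPM at 2w in 1956-1252, and 17.4 ± 1.55 CPM at 4w and 26.4 ± 3.21 CPM at 2w in BRFM1218.

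Of 13 manganese peroxidases, 3 had a higher and 2 a lower age change in 1956-1252, and 8 were not called. The shares of all tested genes were 25.6% higher and 27.2% lower, so neither count stood above the background. MnP3s (TRAVEDRAFT_131080) was the member beyond 2-fold. It had 16.3, 17.0 and 18.1 CPM in 1956-1252 at 4w and 5.15, 5.22 and 3.80 CPM at 2w, against 2.36, 3.09 and 1.56 CPM in BRFM1218 at 4w and 3.34, 3.81 and 3.03 CPM at 2w. The 4w libraries of 1956-1252 stood above all others, and the ages overlapped in BRFM1218, where a fall was called with RLE size factors (-0.53, adjusted p = 0.038). The interaction was 2.36 ± 0.28 (adjusted p = 1.85e-06), and 94.4% of its reads were unique.

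MnP1s (0.67 ± 0.17) rose in 1956-1252 by 0.33 and fell in BRFM1218 by 0.34 on the log2 scale. MnP11s (0.60 ± 0.20) rose in 1956-1252 by 0.63, with a change of 0.03 in BRFM1218, and its call was lost without 1956-1252 2w replicate 1 (0.49, adjusted p = 0.0637). MnP2s (-1.43 ± 0.29) and MnP5s (-0.86 ± 0.26) rose in BRFM1218 and had no call in 1956-1252. The log2 age change of MnP2s was 0.04 in 1956-1252 and 1.47 in BRFM1218, and that of MnP5s was -0.19 in 1956-1252 and 0.67 in BRFM1218. MnP2s lies next to LiP12. The 8 not called had interactions of -0.65 to 0.63 with standard errors of 0.22 to 0.47. Those of the called members were 0.17 (MnP1s) to 0.29 (MnP2s), so the ranges overlapped. MnP4s (0.63) was called without BRFM1218 4w replicate 1 (1.02, adjusted p = 0.00531), MnP8s (-0.38) without the same library (-0.56, adjusted p = 0.0464), MnP10s (0.44) without BRFM1218 4w replicate 2 (0.55, adjusted p = 0.0409) and MnP13 (-0.65) without BRFM1218 2w replicate 3 (-1.13, adjusted p = 0.0453).

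The genes described next have only a locus tag, a mean of at least 10 CPM over all libraries and ages that did not overlap in at least 1 strain, and had the largest called interactions within their pattern of age calls. Over all tested genes the interaction ranged between -6.24 and 9.77. Among genes that rose in 1956-1252 and fell in BRFM1218, TRAVEDRAFT_103761 had 1.77, 1.68 and 2.20 CPM in 1956-1252 at 4w and 0.323, 0.261 and 0.0841 CPM at 2w. The libraries of BRFM1218 had 4.27, 5.08 and 3.93 CPM at 4w and 188, 189 and 199 CPM at 2w. It was at 5.08 CPM or less in 3 groups and high in BRFM1218 at 2w. The age change was 3.03 ± 0.27 in 1956-1252 and -5.42 ± 0.12 in BRFM1218, and the interaction was 8.45 ± 0.30 (adjusted p = 4.04e-14).

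TRAVEDRAFT_137247 had the same order of groups. It averaged 1.32 ± 0.322 CPM at 4w and 0.540 ± 0.164 CPM at 2w in 1956-1252, against 2.96 ± 0.738 CPM at 4w and 53.4 ± 2.37 CPM at 2w in BRFM1218, with an interaction of 5.44 ± 0.30. TRAVEDRAFT_175736, with 24.2 ± 0.979 CPM at 4w and 6.30 ± 0.780 CPM at 2w in 1956-1252 and 16.9 ± 1.96 CPM at 4w and 222 ± 14.0 CPM at 2w in BRFM1218, had an interaction of 5.64 ± 0.13. Its order of strains turned round, with 1956-1252 below BRFM1218 at 2w and above it at 4w.

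Among genes that fell in 1956-1252 and rose in BRFM1218, TRAVEDRAFT_74496 had 5.17, 5.24 and 6.29 CPM in 1956-1252 at 4w and 35.6, 35.3 and 34.6 CPM at 2w. In BRFM1218 it had 17.6, 15.7 and 13.5 CPM at 4w and 1.63, 1.49 and 1.99 CPM at 2w. The ages were apart in both strains and the strains changed places between them. The interaction was -5.86 ± 0.19 (adjusted p = 1.45e-13). TRAVEDRAFT_80160 followed the same course, with 5.0 ± 0.885 CPM at 4w and 14.7 ± 1.47 CPM at 2w in 1956-1252, 19.2 ± 2.73 CPM at 4w and 2.31 ± 0.398 CPM at 2w in BRFM1218, and an interaction of -4.61 ± 0.23.

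TRAVEDRAFT_49270 was less certain. Its libraries had 5.16, 9.33 and 13.2 CPM in 1956-1252 at 4w and 54.7, 37.8 and 2.87 CPM at 2w, against 3.41, 8.51 and 2.40 CPM in BRFM1218 at 4w and 0.190, 0.678 and 0.632 CPM at 2w. The third 2w library of 1956-1252 lay below every 4w library of that strain, so the ages overlapped there. The interaction was -5.04 ± 1.36 (adjusted p = 0.00203). It was -5.58 ± 0.78 without that library, -4.40 without 1956-1252 2w replicate 1 and -4.32 without BRFM1218 4w replicate 2, with adjusted p of 3.6e-06, 0.00395 and 0.00953 for these settings.

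Genes called in 1956-1252 whose change in BRFM1218 was neither called nor above 0.32 on the log2 scale are described next. TRAVEDRAFT_130527 had 154, 158 and 153 CPM in 1956-1252 at 4w and 10.1, 9.75 and 11.4 CPM at 2w. BRFM1218 had 0.615, 0.360 and 0.869 CPM at 4w and 0.228, 0.775 and 0.917 CPM at 2w. The ages were far apart in 1956-1252 and overlapped in BRFM1218, where 1 CPM was not reached, and the interaction was 4.11 ± 0.37 (adjusted p = 2.86e-07).

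TRAVEDRAFT_58662 averaged 133 ± 6.28 CPM at 4w and 9.95 ± 1.14 CPM at 2w in 1956-1252 and 2.66 ± 1.11 CPM at 4w and 2.88 ± 0.290 CPM at 2w in BRFM1218, with an interaction of 3.95 ± 0.25. TRAVEDRAFT_41142 averaged 41.6 ± 1.14 CPM at 4w and 3.47 ± 0.418 CPM at 2w in 1956-1252 and 4.46 ± 1.54 CPM at 4w and 4.91 ± 1.62 CPM at 2w in BRFM1218, with an interaction of 3.69 ± 0.30. Both had libraries of BRFM1218 that overlapped between the ages. The largest interactions of genes that fell in 1956-1252 in this class were smaller. They were -2.05 ± 0.19 for TRAVEDRAFT_134428, -1.87 ± 0.14 for TRAVEDRAFT_72851 and -1.73 ± 0.25 for TRAVEDRAFT_51491. TRAVEDRAFT_72851 shows the pattern, with 9.89, 10.1 and 9.55 CPM in 1956-1252 at 4w and 37.8, 36.6 and 37.6 CPM at 2w, against 8.43, 8.72 and 8.48 CPM in BRFM1218 at 4w and 9.57, 7.53 and 9.48 CPM at 2w. The 2w libraries of 1956-1252 stood apart from the 9 others.

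The reverse class, called in BRFM1218 and under 0.32 without a call in 1956-1252, held larger values at its extremes. TRAVEDRAFT_47268 had 10.1, 9.88 and 10.6 CPM in 1956-1252 at 4w and 11.1, 10.3 and 10.5 CPM at 2w. Its levels in BRFM1218 were 965, 945 and 921 CPM at 4w and 25.9, 21.8 and 24.9 CPM at 2w. The ages overlapped in 1956-1252, and the 4w libraries of BRFM1218 were far above all others. The interaction was -5.35 ± 0.082 (adjusted p = 5.26e-17).

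TRAVEDRAFT_153876 averaged 9.08 ± 0.846 CPM at 4w and 10.2 ± 0.924 CPM at 2w in 1956-1252, against 314 ± 18.6 CPM at 4w and 7.38 ± 1.49 CPM at 2w in BRFM1218, with an interaction of -5.58 ± 0.15. TRAVEDRAFT_50905 averaged 1.26 ± 0.262 CPM at 4w and 1.52 ± 0.398 CPM at 2w in 1956-1252, against 366 ± 84.0 CPM at 4w and 24.4 ± 0.598 CPM at 2w in BRFM1218, with an interaction of -4.19 ± 0.28. In both genes the ages overlapped in 1956-1252 and not in BRFM1218. Of the genes that fell in BRFM1218 in this class, those with the largest interactions were TRAVEDRAFT_21680 (interaction 3.95 ± 0.12), TRAVEDRAFT_49186 (3.63 ± 0.21) and TRAVEDRAFT_100743 (3.51 ± 0.17). TRAVEDRAFT_21680 and TRAVEDRAFT_100743 were called as rising in 1956-1252 with library size alone, at 0.26 and 0.36. TRAVEDRAFT_21680 had 4.35, 4.92 and 4.80 CPM in 1956-1252 at 4w and 3.98, 4.26 and 3.98 CPM at 2w, against 6.27, 6.86 and 6.02 CPM in BRFM1218 at 4w and 84.8, 87.0 and 86.1 CPM at 2w. As in TvLac6, a single group, BRFM1218 at 2w, was high.

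Large interactions were also looked at along the assembly. A called interaction of at least 2-fold and higher in 1956-1252 was found in 8.89% of tested genes, and the same size lower in 8.3%. After a gene of the higher kind, the next gene along the assembly was of the same kind in 162 of 1036 neighbouring pairs (15.6%), against 8.78% of all 11882 pairs of tested neighbours. After a gene of the lower kind it was so in 151 of 993 (15.2%), against 8.35%. There were 23 runs of at least 3 such neighbours in the higher direction, holding 82 genes, and 17 in the lower, holding 56. Neighbours were taken as genes in order with gaps of at most 10000 bases, and none of the 23 pairs within the runs described here overlapped in the annotation.

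The longest run held 6 genes higher in 1956-1252, TRAVEDRAFT_75487, TRAVEDRAFT_24765, TRAVEDRAFT_24766, TRAVEDRAFT_61417, TRAVEDRAFT_54062 and TRAVEDRAFT_67537. Their interactions were 3.05, 4.00, 4.70, 3.44, 2.09 and 3.0. Their levels were not alike. TRAVEDRAFT_61417 had 4.44, 4.13 and 4.79 CPM in 1956-1252 at 4w and 0.186, 0.216 and 0.238 CPM at 2w, against 328, 275 and 350 CPM in BRFM1218 at 4w and 156, 171 and 173 CPM at 2w. It rose in both strains, by 4.37 ± 0.24 in 1956-1252 and 0.93 ± 0.072 in BRFM1218. TRAVEDRAFT_75487, TRAVEDRAFT_24766 and TRAVEDRAFT_67537 rose in 1956-1252 and fell in BRFM1218, while TRAVEDRAFT_24765 and TRAVEDRAFT_54062 fell in BRFM1218 and had no call in 1956-1252. In 5 of the 6 the level in 1956-1252 was below that in BRFM1218 at 2w by more than 4 on the log2 scale, and TRAVEDRAFT_24765 reached 0.316 CPM at most in 1956-1252.

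Of the 6 runs described here, that with the largest mean interaction held 5 genes, TRAVEDRAFT_75468, TRAVEDRAFT_156723, TRAVEDRAFT_175736, TRAVEDRAFT_136448 and TRAVEDRAFT_75471, with interactions of 4.38, 5.22, 5.64, 3.03 and 1.46. All 5 rose in 1956-1252, by 2.57, 3.07, 1.94, 2.65 and 2.54. In BRFM1218 the first 3 fell, TRAVEDRAFT_136448 had no call (-0.39) and TRAVEDRAFT_75471 rose by 1.08. TRAVEDRAFT_156723 had 40.9, 44.4 and 47.6 CPM in 1956-1252 at 4w and 5.49, 5.56 and 4.74 CPM at 2w, against a mean of 30.1 ± 1.05 CPM in BRFM1218 at 4w and 131, 136 and 132 CPM at 2w. TRAVEDRAFT_75468 had 127, 128 and 132 CPM in 1956-1252 at 4w and 21.2, 22.7 and 21.2 CPM at 2w, against 77.7, 75.5 and 85.4 CPM in BRFM1218 at 4w and 268, 273 and 292 CPM at 2w. In each of these 2 genes 1956-1252 was below BRFM1218 at 2w and above it at 4w, with no overlap. The third run, TRAVEDRAFT_31361, TRAVEDRAFT_23498, TRAVEDRAFT_52130, TRAVEDRAFT_74492 and TRAVEDRAFT_76607, had interactions of 2.68, 1.48, 2.34, 3.16 and 1.49, and all 5 rose in 1956-1252.

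In the lower direction the longest run held TRAVEDRAFT_29790, TRAVEDRAFT_169894, TRAVEDRAFT_38225, TRAVEDRAFT_65506 and TRAVEDRAFT_65507, with interactions of -1.82, -1.21, -1.92, -1.84 and -1.48. All 5 rose in BRFM1218, by 1.55, 0.92, 1.04, 1.19 and 1.03, and the last 4 fell in 1956-1252. Those calls in 1956-1252 moved with the scaling: TRAVEDRAFT_29790 also fell with RLE size factors, and TRAVEDRAFT_65507 was not called with library size alone. TRAVEDRAFT_38225 had 119, 122 and 124 CPM in 1956-1252 at 4w and 226, 238 and 209 CPM at 2w, against 265, 284 and 236 CPM in BRFM1218 at 4w and 129, 131 and 124 CPM at 2w. The ages were apart in both strains and moved in opposite directions. The next runs held 4 genes each. TRAVEDRAFT_59584, TRAVEDRAFT_65712, TRAVEDRAFT_65713 and TRAVEDRAFT_49360 had interactions of -2.14, -1.26, -1.37 and -1.65, and TRAVEDRAFT_73672, TRAVEDRAFT_66162, TRAVEDRAFT_60069 and TRAVEDRAFT_60070 had -1.45, -1.33, -1.90 and -1.34. All 8 rose in BRFM1218, and of them TRAVEDRAFT_73672 fell in 1956-1252.

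**Figure D5:**
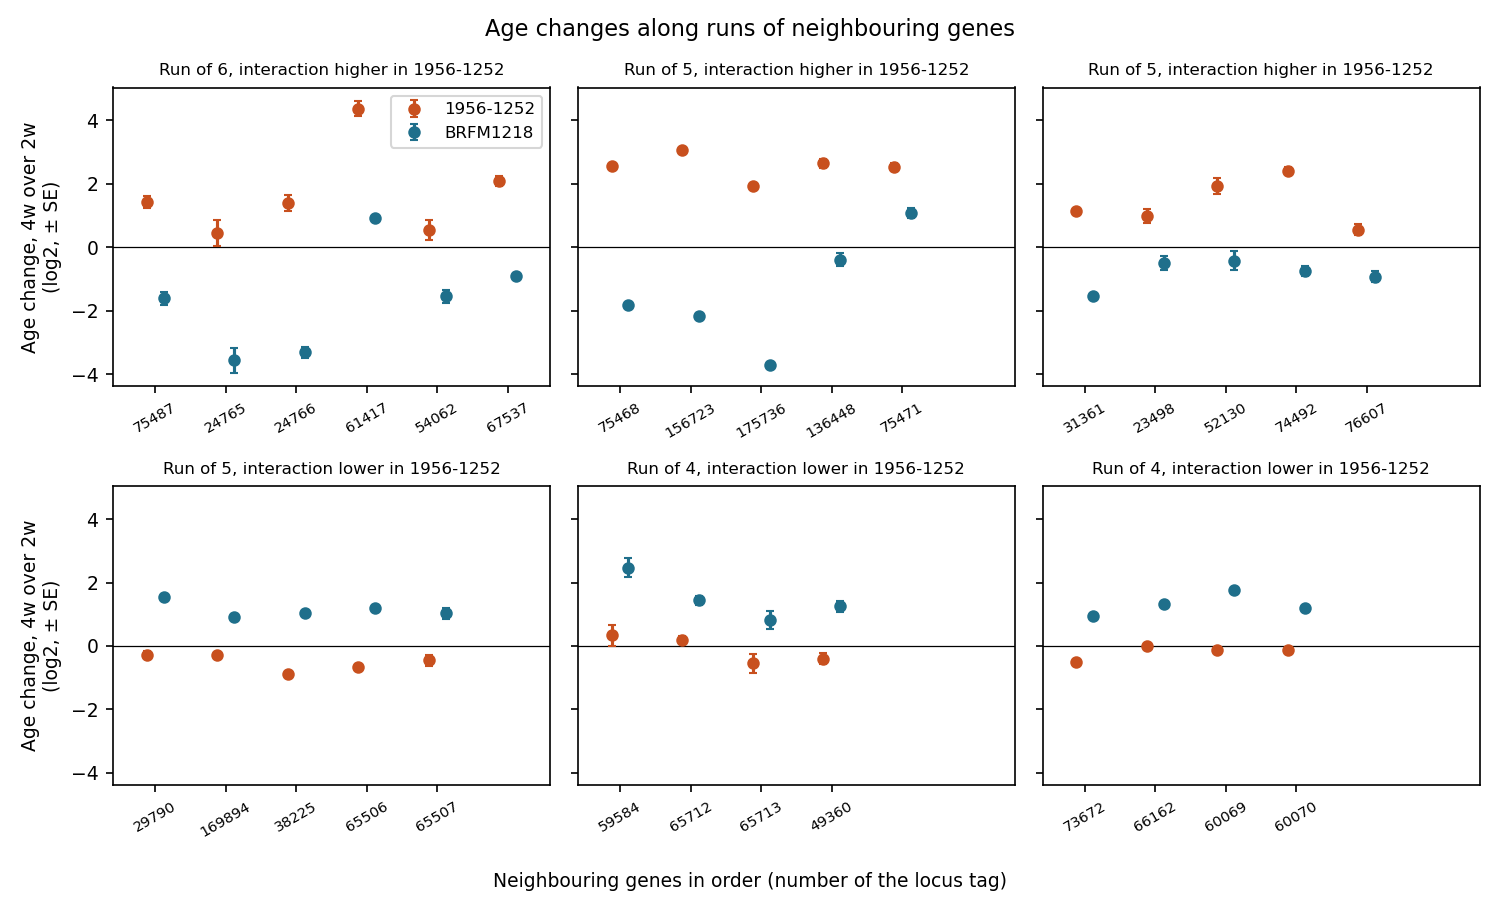
Age change (log2, 4w over 2w, ± SE) in 1956-1252 (orange) and BRFM1218 (blue) along the 3 longest runs of neighbouring genes in each direction, in the order of the assembly. In the upper panels every gene lies higher in 1956-1252, most of all in the run of 5 that contains TRAVEDRAFT_175736 (1.94 in 1956-1252 and -3.70 in BRFM1218), and in the lower panels every gene lies lower in 1956-1252.

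A missed interaction call did not by itself show that the strains changed alike. Likeness was read from the 95% interval of the interaction, and 1138 genes (9.0%) had an interval within 0.32 of 0 on the log2 scale. These included 191 that rose in both strains and 386 that fell in both, and 64 of the 1138 had a called interaction that was nonetheless small. A further 4887 genes were neither called nor bounded this way. None of the 42 genes with a symbol was among the 1138. Many of the 42 had standard errors too large for an interval to fit, such as 0.40 for LiP8, 0.47 for MnP12s and 0.31 for TvLac7. Absence from the 1138 therefore does not by itself show that an age change differed between the strains. The interaction call does show it for the 15 called higher and 14 called lower of the 42. It stays undecided for the 13 not called.

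Only 5 genes with such an interval changed at least 2-fold in both strains. TRAVEDRAFT_159574 had 227, 232 and 238 CPM in 1956-1252 at 4w and 84.9, 87.4 and 81.7 CPM at 2w, against 80.2, 82.9 and 80.2 CPM in BRFM1218 at 4w and 26.4, 31.2 and 30.5 CPM at 2w. It rose by 1.46 in 1956-1252 and by 1.46 in BRFM1218, with an interval of the interaction of -0.18 to 0.17, although its level differed between the strains at both ages. TRAVEDRAFT_75359 rose by 1.5 in 1956-1252 and 1.49 in BRFM1218 (interval -0.26 to 0.29). Its TMM-scaled levels were close as well, at 53.7 ± 2.22 CPM in 1956-1252 and 58.2 ± 2.65 CPM in BRFM1218 at 4w. That closeness depends on the scaling, as the deposited RPKM was 36.3 in 1956-1252 and 26.8 in BRFM1218 at 4w, and 12.4 and 9.45 at 2w. TRAVEDRAFT_30034 also rose in both strains (interval -0.29 to 0.03). Without BRFM1218 2w replicate 2 its interaction of -0.20 was called, with an adjusted p of 0.0367.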

How the data were processed

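RNA sequencing read counts of 12 libraries were analysed. Per the file headers, the authors deposited for each gene model counts of its reads, once for unique alignments and once in total, together with RPKM. The deposited RPKM values equalled counts of all reads scaled by gene length and column total (implied lengths agreed between files within 2.6e-07 in relative terms), and were used only to compare levels between genes. No source used here gives the aligner, counting tool, genome build, strand setting or the reference to which each strain was aligned. In all 12 files 98.7 to 99.17% of reads were unique.

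Protein numbers were matched to RefSeq locus tags of the Trametes versicolor v1.0 assembly (14250 of 14296 matched, 42 with a symbol). That table served for names and gene order only. Lists defined by protein sequence signatures were planned but could not be applied, since no protein sequences were used here.

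Total counts went into edgeR 4.0.16 (R 4.3.3): filterByExpr, TMM scaling, 1 mean per group over 12 libraries (8 residual degrees of freedom), quasi-likelihood tests of the interaction and of each strain's age change, and glmTreat against a log2 difference of 1. Values of p were adjusted over all 12648 tested genes. The common biological coefficient of variation was 8.27%. A strain difference that is the same at both ages cancels in the interaction. Replicates are separate cultures per the labels. Floors of 3 reads cover counting error only. The replicate numbers were not taken to pair libraries.

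Named genes were those with a symbol, the 3 largest called interactions in each of 6 patterns of age calls (no symbol, mean of at least 10 CPM, ages not overlapping in at least 1 strain), the 3 longest runs of neighbours in each direction and the 3 alike genes with the largest age change. The members and lists were chosen with earlier results of these data known. Alternatives were RLE scaling, library size alone, no filter, unique reads, equal depth, a replicate block, each library left out and DESeq2 1.42.0. On simulated counts of 12622 genes with the interaction changed 2-fold in 100, edgeR called 82% of these and 11% of 100 genes changed by 0.32 on the log2 scale. It called 5 unchanged genes, and 94.5% of intervals held the true value. The changed genes all had a mean of at least 1 CPM, and all other genes had no interaction. In the data 52.9% of tested genes were called, and the simulation did not measure these rates at such a share.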

Additional observations from a re-analysis of the deposited data

Results flagged for a closer look

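In 20 genes the age change differed between the strains beyond 2-fold, was called in both strains in opposite directions, and left no overlap between the ages in either strain. Of these, 15 rose in 1956-1252 and fell in BRFM1218, and 5 did the reverse. They were looked for among the genes named in the report only. The interaction (log2, edgeR's quasi-likelihood test) was 4.98 in TvLac6, 2.71 in TvLac2, 2.67 in TvLac4, 2.65 in DyP1 and 1.23 in LDO1. Among genes with a locus tag only, it was 8.45 in TRAVEDRAFT_103761, 5.64 in TRAVEDRAFT_175736, 5.44 in TRAVEDRAFT_137247, 5.22 in TRAVEDRAFT_156723, 4.70 in TRAVEDRAFT_24766 and 4.38 in TRAVEDRAFT_75468. It was 3.16 in TRAVEDRAFT_74492, 3.05 in TRAVEDRAFT_75487, 3.0 in TRAVEDRAFT_67537 and 2.68 in TRAVEDRAFT_31361. The 5 that fell in 1956-1252 and rose in BRFM1218 were TRAVEDRAFT_74496 (-5.86), TRAVEDRAFT_80160 (-4.61), TRAVEDRAFT_38225 (-1.92), TRAVEDRAFT_65506 (-1.84) and TRAVEDRAFT_73672 (-1.45). Over all tested genes, 2088 (16.5%) met the overlap rule alone, with ages that did not overlap in either strain and moved in opposite directions. Opposite calls with an interaction beyond 2-fold, before any overlap rule, were found in 358 genes that rose in 1956-1252 and 212 that fell there. Some named genes had been chosen for opposite age calls, so the 20 are not a share to set against these counts.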

How the results depend on the processing

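Each count kept within 1.5 times its main value under all 19 alternatives, except that DESeq2 gave no counts beyond 2-fold. Leaving out each library in turn gave 2898 to 3284 genes higher and 2967 to 3755 lower in 1956-1252, 556 to 645 and 367 to 486 beyond 2-fold, and 649 to 787 that rose in 1956-1252 and fell in BRFM1218, with 717 to 1083 that did the reverse. The share of called genes that were higher in 1956-1252 was 48.5%. It was 51.5% when libraries were scaled by size alone, which moved the median interaction by less than 0.1. Without 1956-1252 4w replicate 1, 2 or 3 the share was 51.7%, 51.4% and 51.6%. The balance of opposite changes turned as well: with library size alone, 875 rose in 1956-1252 and fell in BRFM1218, and 782 did the reverse. Without 1956-1252 4w replicate 1 these counts were 725 and 717. The main order stayed without replicate 2 (704 and 749) or replicate 3 (702 and 766) of that group, and without any library of the other groups. The replicate block, fitted although 18 same-numbered pairs of libraries correlated at only -0.21 to 0.10 and 5 of 12 libraries correlated best with their own number, gave 3171 higher and 3356 lower and lost no call of a named gene. Of 75 named genes with a called interaction, 70 were called under every alternative. LiP3, LiP2, LiP6, TvLac3 and MnP11s lost the call in 8, 6, 5, 4 and 1 settings, each with a library left out, and none of the 91 reversed a call. TvLac5 was called under 4 settings: library size alone (0.57), DESeq2 (0.54), without BRFM1218 2w replicate 1 (0.64) and without BRFM1218 4w replicate 2 (0.77). Depth limits genes under 1 CPM most, where the median standard error was 0.84.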
